A study of Mus musculus with 4 samples.

Results

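A set of 10 imprinted genes that act on growth and on stem cells were followed through 4 libraries of cultured mouse neural stem cells: Igf2, H19, Meg3, Dlk1, Peg3, Mest, Plagl1, Grb10, Ndn and Igf2r. These 10 genes were taken by symbol from a table of 55487 Ensembl genes, and all 10 were found. The cells were primary neural stem cells from embryonic mouse neocortex, grown as neurospheres with bFGF and EGF, and the labels call them neural cells of the brain. The study asked what the loss of Tut1, the enzyme that adds uridines to the end of U6 snRNA, does to splicing and survival, and whether Trp53, which encodes p53, mediates it.

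Every group was 1 library, so there was no replicate check, no test could be run, and no error or p-value is given. The control carried floxed Tut1 (Tut1f/f) and received lipid nanoparticles (LNP) without cargo. The Tut1 KO library came from Tut1f/f cells, the Trp53 KO library from p53f/f cells and the double KO library from Tut1f/f;p53f/f cells, and all 3 received LNP loaded with mRNA for Cre recombinase, which cuts out DNA between loxP sites. In the paper, cells of these 3 genotypes were exposed to the Cre particles for 3 days before sequencing. The series text gives 3 days in a sentence that also names U6 snRNA, which the labels of these 4 libraries do not. No library was of unfloxed cells, and no p53f/f or Tut1f/f;p53f/f culture received empty LNP, so deletion and Cre delivery cannot be told apart in comparisons with the control.

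Imprinted genes are transcribed mainly from 1 parental copy, because a methylation mark set in the egg or sperm is kept through development. Many of those expressed from the paternal copy, such as Igf2, Mest, Peg3, Plagl1 and Dlk1, promote growth, whereas maternally expressed Igf2r, Grb10, H19 and Meg3 tend to restrain it. Several are high in embryonic tissue and in stem cells and fall after birth. The table holds 1 value per gene, so the parental copies were not separated here.

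Values are transcripts per 1000000 (TPM), a scale per transcript length. The sources disagree on the reads behind them, as the labels name a short-read kit and the study and series text describe Nanopore long reads. Since dividing by length fits reads from fragmented RNA, levels of different genes are compared on the condition that the reads were short. The 10 genes differed widely in level. Mest was the most abundant in every library, Ndn was next, and Peg3, Grb10 and Igf2r lay around 10 TPM. H19 and Plagl1 lay between 1 and 4 TPM. Igf2, Dlk1 and Meg3 stayed below 1 TPM in all 4 libraries. The greatest contrast among the 10 was in Grb10, whose level was 2.99-fold higher in the Trp53 KO library than in the library labelled Tut1 KO. Mest differed by 1.77-fold between its highest library, the control, and its lowest, Tut1 KO, whereas Ndn differed by 1.11-fold over the 4 libraries.

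**Figure D1:**
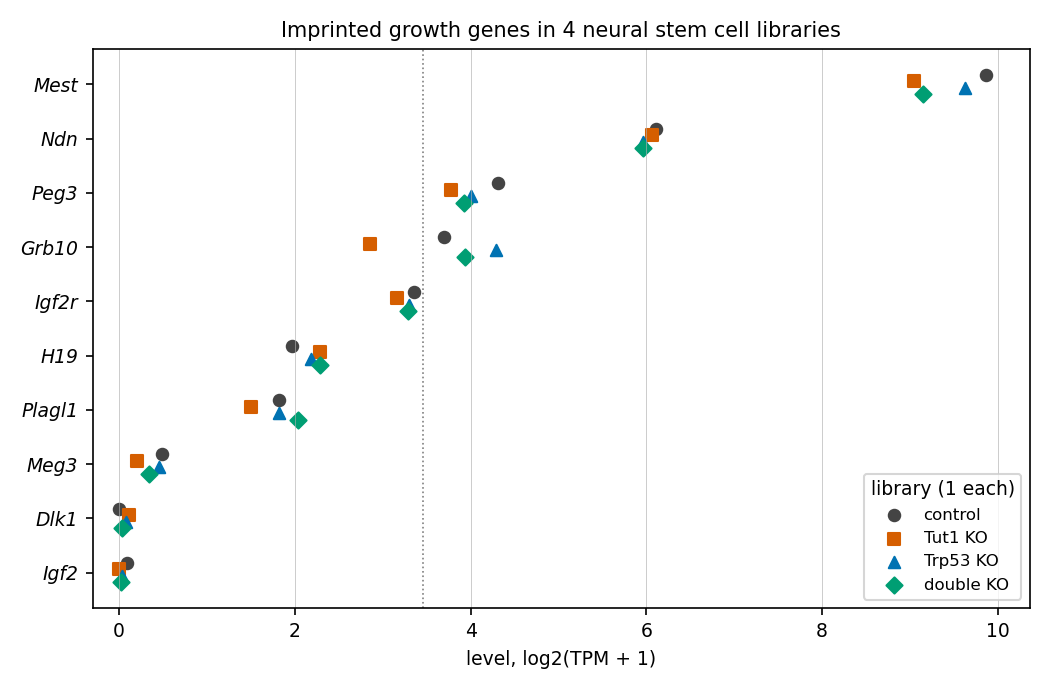
Levels of the 10 imprinted growth genes as log2(TPM + 1) on the horizontal axis, 1 marker for each of the 4 libraries, with genes ordered by their highest level. The dotted line marks 10 TPM. Mest lies far to the right of the others, the 4 markers of Ndn nearly coincide, those of Grb10 spread most, and Meg3, Dlk1 and Igf2 lie at the left edge.

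Differences between libraries are given as differences of log2(TPM + 1), which understate the change of low genes. A gene entered a comparison with at least 10 TPM in at least 1 of the libraries compared, and a difference of at least 1 in either direction, which is about 2-fold, was counted as called. Only Mest, Ndn, Peg3 and Grb10 reached 10 TPM in any library, so these 4 entered and the other 6 are described by their levels. In Tut1 KO minus control, 0 of the 4 were called, beside 4.10% of all 9032 genes entered. The count was also 0 of 4 in Trp53 KO minus control, where 3.83% of all genes were called, in the double KO minus Trp53 KO comparison, where 3.21% were, and in that of the double KO with the control, where 3.31% were. In double KO minus Tut1 KO, 1 of 4 was called, beside 3.90% of all genes, and in Trp53 KO minus Tut1 KO it was again 1 of 4, beside 4.57%. Both calls were of Grb10, in the direction of higher. Genes called higher made up 2.13% of all genes in the former comparison and 2.56% in the latter. Over all 4 libraries, the highest minus the lowest level was at least 1 for 1 of the 4, Grb10, and for 9.28% of 9314 genes. With 4 genes entered, none of these counts can be set apart from the share among all genes.

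Some facts about the libraries bear on any comparison of them. Trp53 was at 39.7 and 41.9 TPM in the Trp53 KO and double KO libraries, against 119.9 in the control. Tut1 was at 29.8 TPM in the library labelled Tut1 KO, against 12.2 in the control, 12.5 in Trp53 KO and 13.7 in the double KO, so it was not lower where its label says it was deleted. The deletion takes out 1 exon and the values are per gene, so this checks the label only in part. By qPCR or Nanopore reads of that exon, the paper reported efficient Tut1 deletion in Tut1f/f cells given Cre particles. Here every direction drawn from Tut1 KO rests on its label. Xist, the RNA of the inactive X chromosome, was at 188 TPM in Tut1 KO and 204 in Trp53 KO but at 0.01 or less in the control and the double KO, and the Y-linked Ddx3y was listed at 0 in the former 2 and at 24.4 and 25.7 in the latter. Comparisons within a sex are therefore Trp53 KO minus Tut1 KO and double KO minus control, and both are given beside the results for Mest and Grb10. Each of them differs in the Trp53 label as well as in the Tut1 label. The part of sex in the other 4 comparisons was not tested.

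All 10 neural stem cell markers entered, among them Fabp7 at 7902 to 9441 TPM and Sox2 at 293 to 385 TPM. Cells outside the neural lineage matter for these genes, since Igf2 and H19 are typical of meninges, choroid plexus and vessels. Of 8 meningeal and fibroblast markers, 7 were below 1 TPM in every library, with a summed level of 4.14 to 4.87 TPM. All 5 endothelial and all 5 microglial markers were below 1 TPM in every library. Among 6 choroid plexus markers, 5 were below 1 TPM everywhere, Kcnj13 and Folr1 were listed at 0, and the list's summed level ran from 0.20 to 5.69 TPM, most of it Otx2 in the 3 libraries above 1 TPM. Some markers of neurons and glia were present as well. Oligodendrocyte lineage markers had a summed level of 1511 to 1698 TPM, and of 5 astrocyte markers 2 entered, Aldoc at 163 to 186 TPM and Aldh1l1 at 76.1 to 90.8, whereas Gfap and Aqp4 were below 1 TPM everywhere. Of 8 neuron markers 2 entered, Tubb3 and Map2, 4 were below 1 TPM everywhere, and Neurod2 was listed at 0. Map2 was at 208 TPM in the control, 141 in Tut1 KO, 181 in Trp53 KO and 191 in the double KO, and Tubb3 was at 12.64, 12.05, 10.98 and 12.54 TPM in the same order. Of the 2 that entered, Map2 was lowest in Tut1 KO, as Mest, Peg3 and Grb10 were, and Tubb3 in Trp53 KO. Among all genes entered, 41.1% were lowest in Tut1 KO. Of the neuron markers below 10 TPM, Rbfox3, Eomes and Stmn2 were lowest in Tut1 KO and Dcx and Neurod1 in Trp53 KO. Nothing is read from the order of these low values. The part of neurons in the values of the imprinted genes was not tested.

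Mest (ENSMUSG00000051855), also called Peg1, encodes a hydrolase-fold protein that is made from the paternal copy in embryonic tissues. The gene lies at chr6:30723547-30748465 on the plus strand of GRCm38 and has 13 exons in its longest transcript, of 2665 bases. The promoter at the RefSeq start is shown because the imprint of Mest is known to sit at its promoter. Capitals mark the motif TGCCGC in either orientation (GCGGCA on the other strand), the letters bound by ZFP57 where they are methylated.

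Mest, chr6:30737800-30738099, plus strand, GRCm38.p6: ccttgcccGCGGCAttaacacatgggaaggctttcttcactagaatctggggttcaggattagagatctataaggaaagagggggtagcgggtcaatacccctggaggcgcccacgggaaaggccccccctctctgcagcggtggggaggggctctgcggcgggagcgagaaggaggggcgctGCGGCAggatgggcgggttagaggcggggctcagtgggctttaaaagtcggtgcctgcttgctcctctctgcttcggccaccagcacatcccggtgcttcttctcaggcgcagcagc

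This window of 300 bases, from 250 before the start to 50 after it, held 2 matches and 17 CpG pairs. Over 32851 such RefSeq windows, 11.6% held the motif, the median window had 7 CpG pairs, and the 90th percentile was 31. A RefSeq start further upstream, with the window chr6:30733256-30733555, had no match and 8 CpG pairs. A match describes the letters and not binding, and no methylation was measured here.

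The level of Mest was 936 TPM in the control, 529 in Tut1 KO, 787 in Trp53 KO and 565 in the double KO. Both libraries with a Tut1 deletion in their label thus lay below both without one, as they did for 17.1% of all genes. The difference of log2(TPM + 1) was -0.82 in Tut1 KO minus control and -0.48 in the double KO minus Trp53 KO, short of the threshold of 1 in both. Those 2 comparisons share no library. Within a sex, it was -0.73 in double KO minus control and 0.57 in Trp53 KO minus Tut1 KO. The library labelled for Tut1 loss was the lower one in each pair. Both pairs also differ in the Trp53 label, so the parts of the 2 labels cannot be told apart in them. For the Trp53 label, Trp53 KO minus control gave -0.25 and double KO minus Tut1 KO gave 0.10, and the latter turned to -0.02 when corrected for transcript GC content and length. Under all 6 alternative treatments of the values the sign in both Tut1 comparisons stayed negative, with -0.88 to -0.72 in the former and -0.53 to -0.47 in the latter.

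Among all genes Mest ranked 150 in the control, 265 in Tut1 KO, 185 in Trp53 KO and 248 in the double KO. It supplied 89.1% of the summed TPM of the 10 genes in the control and 84.2% in Tut1 KO, so the sum of all 10, which went from 1050.1 TPM in the control to 628 in Tut1 KO, 898 in Trp53 KO and 671 in the double KO, mostly follows Mest. Copg2, which encodes a coat protein of transport vesicles, overlaps the 3′ end of Mest on the other strand, so reads there can only be told apart by strand. The kit named in the labels keeps strand, and the counting setting was not stated. Copg2 was at 41.5, 34.3, 41.8 and 42.9 TPM in the control, Tut1 KO, Trp53 KO and the double KO. The ratio of Mest to Copg2 was 22.6, 15.4, 18.9 and 13.2 in the same order, again lower in both libraries labelled for Tut1 loss.

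Peg3 (ENSMUSG00000002265, chr7:6703892-6730431, minus strand) encodes a zinc finger protein made from the paternal copy. Its level was 18.9 TPM in the control, 12.7 in Tut1 KO, 15.0 in Trp53 KO and 14.2 in the double KO. In these values the order of the 4 libraries was the same as for Mest, with the control highest and Tut1 KO lowest, but the double KO stood close to Trp53 KO. The difference was -0.54 in Tut1 KO minus control and -0.07 in the double KO minus Trp53 KO. The former was -0.26 after the values were corrected for transcript GC content and length, a step added after the data were seen. Peg3 and Mest made 2 of 4 genes with both Tut1-labelled libraries below both others, a pattern that 17.1% of all genes showed. In the values as deposited, the Tut1 KO library was the lowest for 3 of 4, Mest, Peg3 and Grb10, and for 41.1% of all genes. After the correction it was the lowest for Grb10 alone, since the double KO minus Tut1 KO difference turned from 0.10 to -0.02 for Mest and from 0.15 to -0.09 for Peg3.

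Ndn (ENSMUSG00000033585, chr7:62346569-62350262, plus strand) encodes necdin, a MAGE family protein that restrains proliferation and lies in the Prader-Willi region. It has a single exon and was, with 68.1, 66.1, 61.6 and 61.3 TPM in the control, Tut1 KO, Trp53 KO and the double KO, the steadiest of the 4 genes that entered. Its differences ran from -0.15 to -0.01 over the 6 comparisons. After the correction for GC content and length, that of Tut1 KO minus control turned to 0.17, so no direction is given for it. Plagl1 (ENSMUSG00000019817, chr10:13060504-13131694, plus strand), a zinc finger transcription factor also called Zac1 that regulates other imprinted genes, was at 2.54, 1.82, 2.53 and 3.12 TPM in the same order. It was lowest in Tut1 KO and highest in the double KO, below the minimum for a comparison.

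Grb10 (ENSMUSG00000020176, chr11:11930508-12038683, minus strand) encodes an adaptor that binds the receptors of insulin and IGF1 and dampens their signal. It is made from the maternal copy in most tissues and from the paternal copy in neurons, with different promoters. Both RefSeq promoter windows are shown because Grb10 was the one gene of the 10 that was called, and they differ in composition.

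Grb10, chr11:12037371-12037670, minus strand, GRCm38.p6: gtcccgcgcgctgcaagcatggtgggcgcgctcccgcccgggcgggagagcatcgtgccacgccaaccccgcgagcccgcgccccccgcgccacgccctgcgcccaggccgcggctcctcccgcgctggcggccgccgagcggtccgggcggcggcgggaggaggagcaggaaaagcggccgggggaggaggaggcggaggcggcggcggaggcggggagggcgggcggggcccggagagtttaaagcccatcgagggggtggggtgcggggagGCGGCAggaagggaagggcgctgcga
Grb10, chr11:12027922-12028221, minus strand, GRCm38.p6: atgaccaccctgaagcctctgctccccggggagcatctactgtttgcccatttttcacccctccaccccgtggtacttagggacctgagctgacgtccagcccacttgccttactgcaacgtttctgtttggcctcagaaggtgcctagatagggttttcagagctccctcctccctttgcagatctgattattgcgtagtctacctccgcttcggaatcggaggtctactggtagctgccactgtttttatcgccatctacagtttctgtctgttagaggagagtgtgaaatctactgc

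The window at the outer end of the gene held 1 match to the motif, 45 CpG pairs and 80.0% GC, and the one inside the gene held 0 matches, 9 CpG pairs and 52.3% GC. The table sums over all transcripts, so it does not tell which start was used. Over the 16 windows found for 9 of the 10 genes, 6 held the motif, beside 11.6% of all 32851 windows. They were 2 overlapping windows of Mest, which are not separate, and 1 each of Igf2, Plagl1, Grb10 and Meg3.

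Grb10 was at 12.02 TPM in the control, 6.21 in Tut1 KO, 18.6 in Trp53 KO and 14.4 in the double KO. Tut1 KO was the low library and Trp53 KO the high one, with the control and the double KO between them. The difference was 1.44 in Trp53 KO minus Tut1 KO, both of which expressed Xist, and 0.24 in double KO minus control, both of which expressed Y-linked genes. In double KO minus Tut1 KO it was 1.09. In the 2 comparisons of the Tut1 label it was -0.85 with Trp53 intact and -0.35 without it, and in Trp53 KO minus control it was 0.59. Both calls used the library labelled Tut1 KO. Grb10 was below 10 TPM there, so it entered these comparisons through the library where it was high. Without Tut1 KO the range over the other 3 libraries was 0.59. The call in double KO minus Tut1 KO was also lost, at 0.79 to 0.99, with a pseudocount of 5, with quantile normalization and with the correction for GC content and length.

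**Figure D2:**
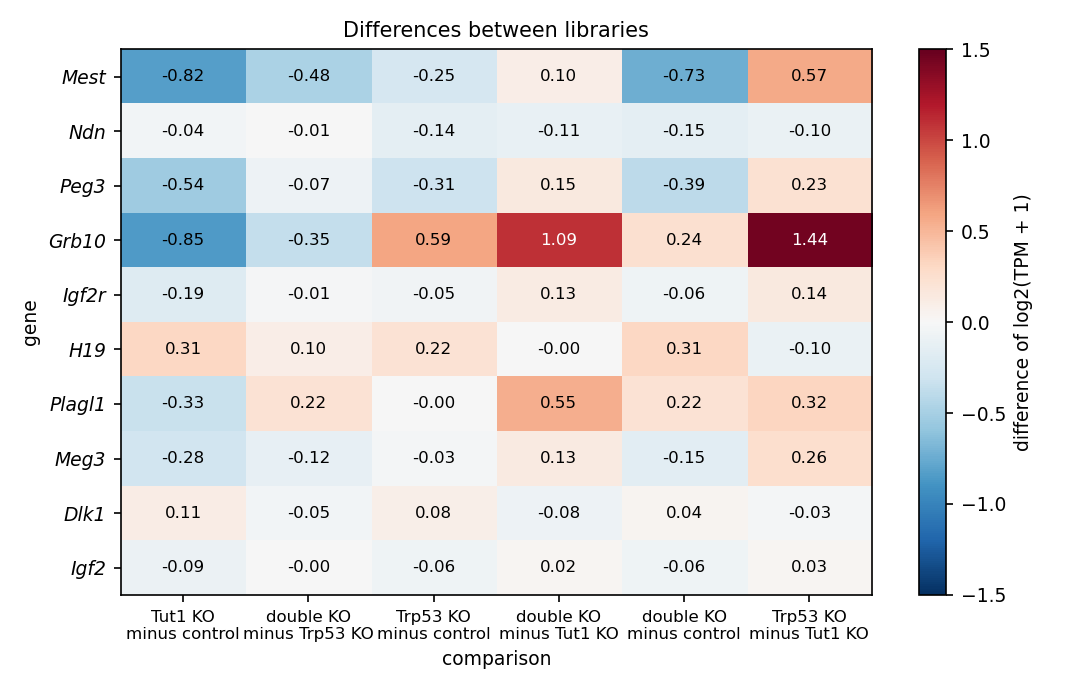
Differences of log2(TPM + 1) between libraries for the 10 genes (rows) in the 6 comparisons (columns), with the value in each cell and its color from blue (lower in the first library) to red (higher). The darkest cells are those of Grb10 in both comparisons with Tut1 KO as reference, 1.44 and 1.09, and the row of Ndn is nearly white. The 6 lower rows, from Igf2r to Igf2, are of genes below 10 TPM in every library.

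The genes whose pattern lay closest to that of Grb10 were found by the distance between log2(TPM + 1) values centered on the mean of the 4 libraries, among the 9314 genes with at least 10 TPM somewhere. They were Dock3 at a distance of 0.12, Acss2 at 0.19, Stk38l and Pcmtd2 at 0.19 and 0.20, and Dst at 0.28. Dock3 was at 9.62, 5.14, 15.1 and 12.9 TPM and Dst at 11.5, 5.22, 14.6 and 14.7 TPM in the control, Tut1 KO, Trp53 KO and the double KO. With 4 points per gene, such likeness is a description only.

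Igf2r (ENSMUSG00000023830, chr17:12682406-12769664, minus strand) encodes the mannose 6-phosphate receptor, which takes up IGF2 for degradation. Its level was 9.22 TPM in the control, 7.96 in Tut1 KO, 8.88 in Trp53 KO and 8.78 in the double KO, a span of 1.16-fold. It therefore stayed just under the minimum of 10 TPM, and after Ndn it was the steadiest of the 7 genes above 1 TPM. Its ligand, Igf2 (ENSMUSG00000048583, chr7:142650766-142666816, minus strand), a growth factor of embryonic tissues, was at 0.064 TPM in the control, listed at 0 in Tut1 KO, and at 0.019 and 0.017 in Trp53 KO and the double KO. Receptor transcripts were thus measured in every library whereas those of the ligand were near 0 in all 4. Fewer cells that make a transcript and less of it per cell cannot be told apart in such libraries.

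Dlk1 (ENSMUSG00000040856, chr12:109452823-109463336, plus strand), a transmembrane protein related to the Notch ligands that is known for its role in the postnatal neural stem cell niche, was listed at 0 in the control and was at 0.082, 0.060 and 0.027 TPM in Tut1 KO, Trp53 KO and the double KO. Nothing can be read from an order of values this low. The depth behind them is unknown, because TPM does not keep it, so no limit can be put on a value of 0.

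H19 (ENSMUSG00000000031, chr7:142575529-142578143, minus strand) and Meg3 (ENSMUSG00000021268, chr12:109541001-109571726, plus strand) are maternally expressed long noncoding RNAs, the partners of Igf2 and Dlk1 in their clusters. H19 was at 2.92 TPM in the control, 3.87 in Tut1 KO, 3.55 in Trp53 KO and 3.86 in the double KO. It was the one gene of the 10 with a difference above 0 in all 3 libraries against the control and above 1 TPM throughout, by 0.31, 0.22 and 0.31 on the log2 scale. Meg3 was at 0.403, 0.152, 0.375 and 0.262 TPM in the same order. After the correction for GC content and length its difference in Tut1 KO minus control turned from -0.28 to 0.04, so no order is read from it. H19 exceeded Igf2 within each library by 1.88 to 2.28 on the scale of log2(TPM + 1), and Meg3 exceeded Dlk1 by 0.09 to 0.49. At these levels such differences are set largely by the pseudocount. H19 shares exon sequence with Mir675 and Meg3 with Mir770, and how reads were divided among them was not stated.

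Mest and H19 each host a microRNA, whose mature sequence is shown to identify it, from RefSeq on GRCm38.p6, with the seed (bases 2 to 8) in capitals. The seeds differ.

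mmu-miR-335-5p, chr6:30741314-30741336, plus strand: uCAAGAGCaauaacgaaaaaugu
mmu-miR-675-5p, chr7:142577112-142577133, minus strand: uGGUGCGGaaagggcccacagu

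Libraries made from polyadenylated RNA do not measure mature microRNAs. The Mir675 precursor was at 0.219 to 0.272 TPM, and that of Mir335 was listed at 0 in 3 libraries and was at 0.016 TPM in Trp53 KO, although its host was among the most abundant genes.

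In order of level the 10 genes fell into steps. Mest at its lowest, 529 TPM, lay above Ndn at its highest, 68.1, and Ndn at its lowest, 61.3, above Peg3 at its highest, 18.9. The ranges of Peg3 and Grb10 overlapped, as did those of Grb10 and Igf2r, and those of H19 and Plagl1. Igf2r lay above H19 in every library, Plagl1 above Meg3, and Meg3 above Dlk1 and Igf2, which overlapped.

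The imprinted neighbors of these genes were mostly low too. Of 24 neighbors in the table, 4 reached 10 TPM (Copg2, Snrpn, Peg12 and Cdkn1c), 15 were below 1 TPM in every library, and 0 of the 4 were called in any of the 6 comparisons, where 3.21% to 4.57% of all genes were. Snrpn, a splicing protein gene that lies, like Ndn, in the Prader-Willi region, was the most abundant at 63.0 to 69.9 TPM. Cdkn1c, the cell cycle inhibitor p57 on the chromosome of Igf2 and H19, was at 10.5, 12.2, 13.4 and 17.5 TPM in the control, Tut1 KO, Trp53 KO and the double KO.

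Among 28 imprinted genes at other loci, 16 entered. Called in some comparison were 2 of the 16, Commd1 and Tssc4, beside 3.21% to 4.57% of all genes in each comparison and 9.28% with a range of at least 1. Both were highest in the control. Commd1, a regulator of copper and NF-kB pathways, was at 75.9 TPM in the control, 29.2 in Tut1 KO, 26.7 in Trp53 KO and 36.2 in the double KO, with differences from the control of -1.35, -1.47 and -1.05. It shares exons with another annotated gene, which makes its value uncertain. Tssc4 was at 53.3, 28.3, 20.6 and 23.6 TPM and was called lower in Trp53 KO and in the double KO than in the control, with differences of -1.33 and -1.14. Gnas, which encodes a G protein subunit, was the most abundant at 695, 879, 998 and 693 TPM. Among the 16, 4 genes, Inpp5f, Nap1l5, Nnat and Peg10, were lower in both Tut1-labelled libraries than in both others, beside 17.1% of all genes, although Inpp5f was at 55.2 TPM in both the double KO and Trp53 KO. In the opposite direction lay 2 of the 16, Sgce and Mcts2, beside 15.3% of all genes. Peg10 was at 49.9, 36.3, 56.8 and 42.2 TPM, and Nap1l5 at 150, 104, 154 and 122 TPM. The medians of these 16 genes were -0.14 in Tut1 KO minus control and 0.06 in the double KO minus Trp53 KO, against -0.68 and -0.21 for the 4 imprinted growth genes and -0.09 and 0.05 for all genes.

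**Figure D3:**
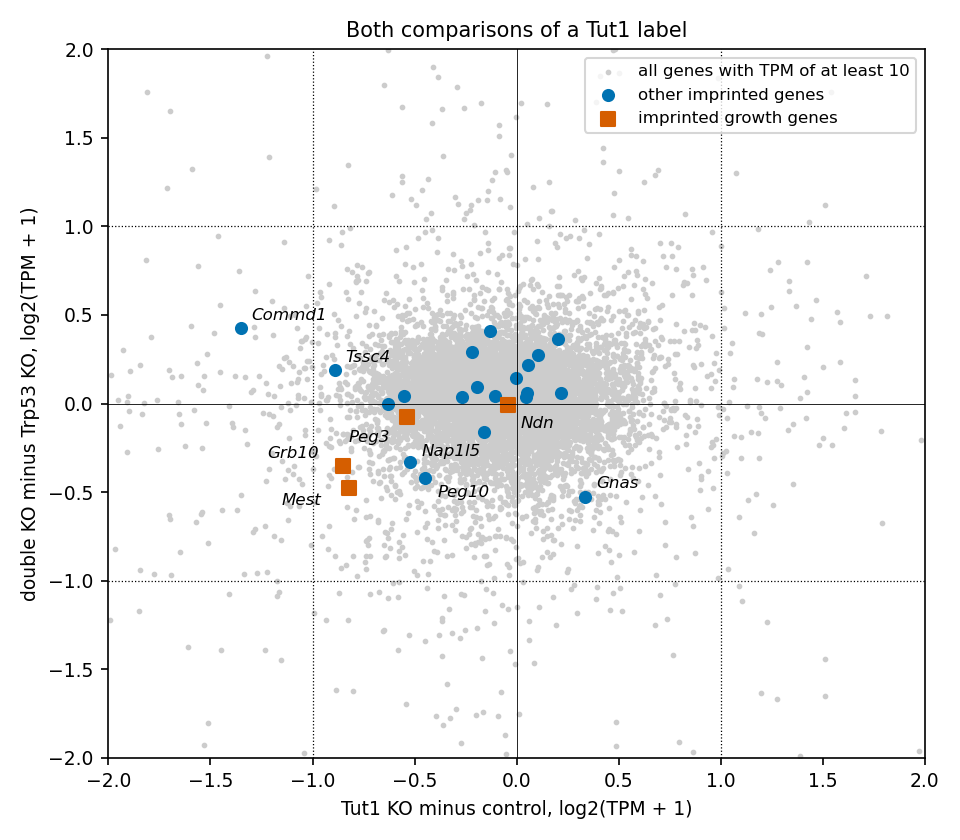
Difference of log2(TPM + 1) in Tut1 KO minus control (horizontal) against double KO minus Trp53 KO (vertical), for the 4 imprinted growth genes with at least 10 TPM (squares), 20 other imprinted genes (circles) and all genes (gray points, drawn between -2 and 2 on both axes). Dotted lines mark differences of 1. Mest, at -0.82 and -0.48, and Grb10, at -0.85 and -0.35, lie at the lower left inside the dotted lines, among many gray points, and Ndn lies near 0.

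The IGF pathway, on which Igf2, Igf2r and Grb10 act, was present mainly as binding proteins, receptors and signaling genes. Of 21 such genes outside the 10, 13 entered. Igf1, the other ligand, was at 0.234 to 0.505 TPM, so both ligand genes were below 1 TPM. The receptors that GRB10 binds, named here for that role, were at 11.3, 9.58, 12.9 and 11.8 TPM for Igf1r and 14.1, 8.44, 14.6 and 12.8 TPM for Insr in the control, Tut1 KO, Trp53 KO and the double KO. Both were lowest in Tut1 KO and highest in Trp53 KO, as Grb10 was. Of the 13 genes, 9 were lowest in Tut1 KO, beside 41.1% of all genes, and a relation of the receptors to Grb10 was not tested. Igfbp2, an IGF binding protein, was the most abundant at 761, 906, 1267 and 886 TPM, also highest in Trp53 KO.

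Called in the pathway were 2 of 13 genes, both higher in Trp53 KO than in the control, where 3.83% of all genes were called, and than in Tut1 KO, where 4.57% were. Igf2bp2, an RNA-binding protein of Igf2 mRNA, was at 8.66, 7.58, 20.04 and 11.5 TPM, with differences of 1.12 and 1.29. In both comparisons only Trp53 KO reached 10 TPM, so the gene entered through the library where it was high. Igfbp5 was at 21.1, 22.5, 48.3 and 30.4 TPM, with differences of 1.16 and 1.07. In the other 4 comparisons 0 genes of the pathway were called. The median of the pathway was -0.24 in Tut1 KO minus control and 0.39 in Trp53 KO minus Tut1 KO, where it was 0.05 for all genes and 0.40 for the 4 imprinted growth genes.

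**Figure D4:**
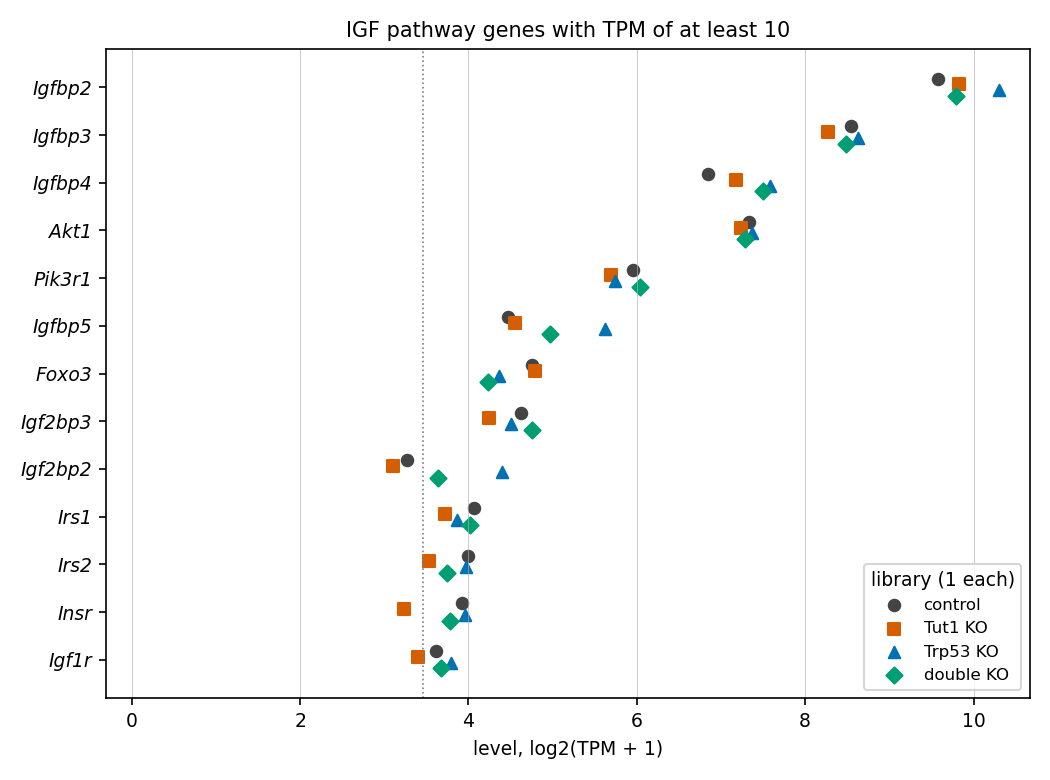
Levels of the 13 IGF pathway genes with at least 10 TPM in some library, as log2(TPM + 1) on the horizontal axis, 1 marker for each of the 4 libraries. The dotted line marks 10 TPM. The Trp53 KO markers of Igfbp5 and Igf2bp2 lie to the right of the other 3, and the Tut1 KO marker of Insr lies to the left.

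A list of 17 genes that read, keep or remove the methylation of imprinted regions was looked at next. Of the 17, 12 entered, Dppa3 was listed at 0 in all 4 libraries, and Trim28, the corepressor that ZFP57 recruits, was the most abundant at 253 to 276 TPM. Zfp57 itself was at 13.1 TPM in the control, 20.4 in Tut1 KO, 8.26 in Trp53 KO and 9.04 in the double KO. Called in some comparison were 2 of the 12, Zfp57 and Arid4b, beside 9.28% of all genes with a range of at least 1. Zfp57 was called lower in the double KO than in Tut1 KO, at a difference of -1.09, where 3.90% of all genes were called. It was also called lower in Trp53 KO than in Tut1 KO, at -1.20, where 4.57% were. In both of these comparisons only Tut1 KO reached 10 TPM, so Zfp57 entered through the library where it was high. Arid4b, a chromatin protein gene that overlaps Ggps1 on the other strand, was called higher than in the control both in Trp53 KO, at a difference of 1.16, beside 3.83% of all genes called, and in the double KO, at 1.47, beside 3.31%. In the values as deposited, 9 of the 12 genes were lowest in Tut1 KO, beside 41.1% of all genes. The median of the 11 that entered Tut1 KO minus control was -0.45, against -0.09 for all genes. The correction for GC content and length moved that of all genes to 0.01, and its effect on this list was not tested. Of the 12, 3 were lower in both Tut1-labelled libraries than in both others, Uhrf1, Setdb1 and Tet3, beside 17.1% of all genes.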

How the data were processed

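The 4 libraries of polyadenylated RNA, 1 per group, were analysed from 1 gene table. The authors deposited TPM values, with Trimmomatic, HISAT2, StringTie and the build mm10 named in the submitters' processing notes. The labels name a stranded short-read kit, whereas the study and the series text describe Nanopore long reads for such cells, and this conflict over the platform was not resolved. Each column summed to nearly 1000000, no read count could be recovered, and the depth and counting error are unknown.

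Groups were taken from genotype and treatment labels. Differences were taken on log2(TPM + 1), for genes with at least 10 TPM in at least 1 library compared, and called at 1 or more. No test was run. The members and lists were chosen with earlier results of these data known. Named were all 10 genes, genes of the other lists that were called, the most abundant of each list and the 5 genes nearest to Grb10. Others were named after their values were seen. Coordinates came from GENCODE M21 (GRCm38), which held 99.5% of the IDs, and windows and microRNAs from RefSeq (GRCm38.p6). H19 had no window.

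Alternatives were a pseudocount of 0.1 or 5, a minimum of 1 TPM or none, medians set to 0, quantile normalization, rescaling without 442 mitochondrially encoded and ribosomal protein genes, and a 1.5-fold threshold. Added after the data were seen were leaving out each library and correcting for transcript GC content and length. Code was tested on simulated data. Python 3.11.15, numpy 2.4.6, pandas 2.3.3 and matplotlib 3.10.9 were used.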

Additional observations from a re-analysis of the deposited data

How the results depend on the processing

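Of the differences of single genes under the alternatives, 357 stayed on their side of the threshold and 3 did not. They cover all 10 genes, also the 6 below the minimum of 10 TPM. The lowest of these could hardly pass the threshold, so the count of 357 does not measure robustness. These 3 were Grb10 in double KO minus Tut1 KO, which fell from 1.09 to 0.79 with a pseudocount of 5, to 0.99 with quantile normalization and to 0.94 with the correction for GC content and length, so the count of genes called there became 0. In Trp53 KO minus Tut1 KO the difference of Grb10 ran from 1.07 to 1.57 and kept its call. With a 1.5-fold threshold the counts of the 4 genes called became 2 in Tut1 KO minus control, beside 12.1% of all genes, 1 in Trp53 KO minus control, beside 8.42%, and 1 in the double KO minus control, beside 7.76%, and 2 had a range past it, beside 24.4%. Leaving out each library in turn, the count with a range of at least 1 was 0 without Tut1 KO and 1 otherwise (0 to 1). The excess of H19 over Igf2 was 0.64 in the control, 0.83 in Tut1 KO, 0.77 in Trp53 KO and 0.82 in the double KO with a pseudocount of 5, and 4.20 to 5.31 with one of 0.1. That of Meg3 over Dlk1 was 2.33 in the control, 0.47 in Tut1 KO, 1.57 in Trp53 KO and 1.52 in the double KO with a pseudocount of 0.1, and 0.02 to 0.11 with one of 5. The pseudocount itself sets such values at levels near 1 TPM and below. The other 68 counts and differences of this kind stayed on their side. A reversal was defined only for differences of at least 1 in the main setting, so its absence says nothing of smaller ones. Some of those turned in sign, as stated for Mest, Peg3, Ndn and Meg3. No paired analysis was possible because each group had 1 library and no test was run. With depth unknown, no limit can be given for Igf2, Dlk1 and Meg3, and no difference can be set against the spread between cultures.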
